A study of Mus musculus with 14 samples.

Results

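Variants in the untranslated regions (UTRs) and at the start and stop codons of protein-coding genes were counted in 12 mouse mammary tumours. The classes were 5' UTR variants, 3' UTR variants, 5' UTR variants that create a premature start codon (upstream start gains), start lost, stop lost and UTR truncations, and a gene was a member if any of its protein-coding transcripts carried any of these 6 effects in any tumour. A gene's count was the highest over its protein-coding transcripts, and a transcript that a table did not list was counted as 0. In all, 12906 of the 21312 protein-coding genes listed were members. Of these, 11013 genes carried a 3' UTR variant, 5862 a 5' UTR variant, 1434 an upstream start gain, 110 a start lost, 140 a stop lost and 7 a UTR truncation.

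The untranslated regions of a messenger RNA flank its coding sequence. The 5' UTR is the stretch scanned by the small ribosomal subunit, and an AUG created there can start a short upstream open reading frame that lowers initiation at the main start codon. The 3' UTR carries the sites for microRNAs and RNA-binding proteins that set the stability, place and translation of the message. A lost start codon forces initiation elsewhere, and a lost stop codon lets the ribosome read on into the 3' UTR. The annotation programme gives an upstream start gain a low predicted impact, and places most other UTR variants in its MODIFIER class with intronic and flanking changes.

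Whole-exome sequencing of tumour DNA was used to look at DNA damage under raised tissue tension and oxidative stress. All tumours grew from Balb/c p53null mammary fragments, taken from donors of 8 to 10 weeks, and were collected at a largest diameter of 2 cm. STIFF tumours (A7, A8 and A9) grew in cleared fat pads of wild-type females, injected at 3 to 4 weeks of age with collagen 1/basement membrane hydrogel that had been crosslinked with 500 mM L-ribose in 0.1% acetic acid. SOFT tumours (A1, A2 and A3) grew with the same gel made without ribose, and both gels held 20% basement membrane extract. GPX4_KO tumours (B4, B5 and B6) grew in the fat pads of LysM-Cre GPX4 knockout mice, and GPX4_WT tumours (B1, B2 and B3) in LysM-Cre GPX4 wild-type mice. Recipients in both of these groups were also 3 to 4 weeks old. LysM-Cre acts in myeloid cells, so the knockout belongs to host cells and not to the implanted fragment. Below, gel tumours are the STIFF and SOFT tumours together and host tumours are the GPX4_KO and GPX4_WT tumours together. The labels do not say whether tumours of a group came from separate donors, so each p-value rests on spread that may be partly technical. Files of 2 wild-type tails were not analysed here.

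The tables give no position, read depth or allele fraction. Inherited differences between the mice and the reference genome, false calls and tumour mutations cannot be told apart in them, and neither can 2 different variants that give a gene the same count. UTR lengths are not given, so counts were compared between tumours and not per length between genes. A tumour's total is a sum of gene counts, so a variant annotated to several genes counts once in each. Pcdhga1 and Pcdhga2, for example, had the same 3' UTR count as each other in every tumour (35 to 38). The number of distinct variants behind a total is not known. B5 held the fewest variants of any tumour in each of the 6 classes. Of the gel tumours, A9 held the fewest 5' UTR variants, 3' UTR variants and upstream start gains. Several results are given with and without A9 and B5. The targeted genes carried almost nothing: Trp53 had a single 5' UTR variant, in B2, and Gpx4 and Lyz2 (the gene that carries the LysM-Cre) had none of the 6 classes in any tumour. These counts do not test the deletions, since a missing exon leaves no variant to count.

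3' UTR variants were the most numerous class and were fewer in STIFF than in SOFT tumours, without passing the test. 3' UTR variants numbered 12184, 11607 and 11267 in the STIFF tumours A7, A8 and A9, against 12308, 14444 and 13262 in the SOFT tumours A1, A2 and A3. They numbered 13564, 10783 and 18435 in the GPX4_KO tumours B4, B5 and B6, against 20765, 17934 and 15554 in the GPX4_WT tumours B1, B2 and B3. Every STIFF tumour lay below every SOFT tumour, whereas B6 lay inside the GPX4_WT range. 5' UTR variants numbered 2781, 2723 and 2454 in STIFF tumours, against 2664, 3088 and 2923 in SOFT tumours. They numbered 2723, 2386 and 4072 in GPX4_KO tumours, against 4609, 3923 and 3475 in GPX4_WT tumours. Both pairs of groups overlapped in this class, and the GPX4_KO tumours spread more widely than any other group.

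**Figure D1:**
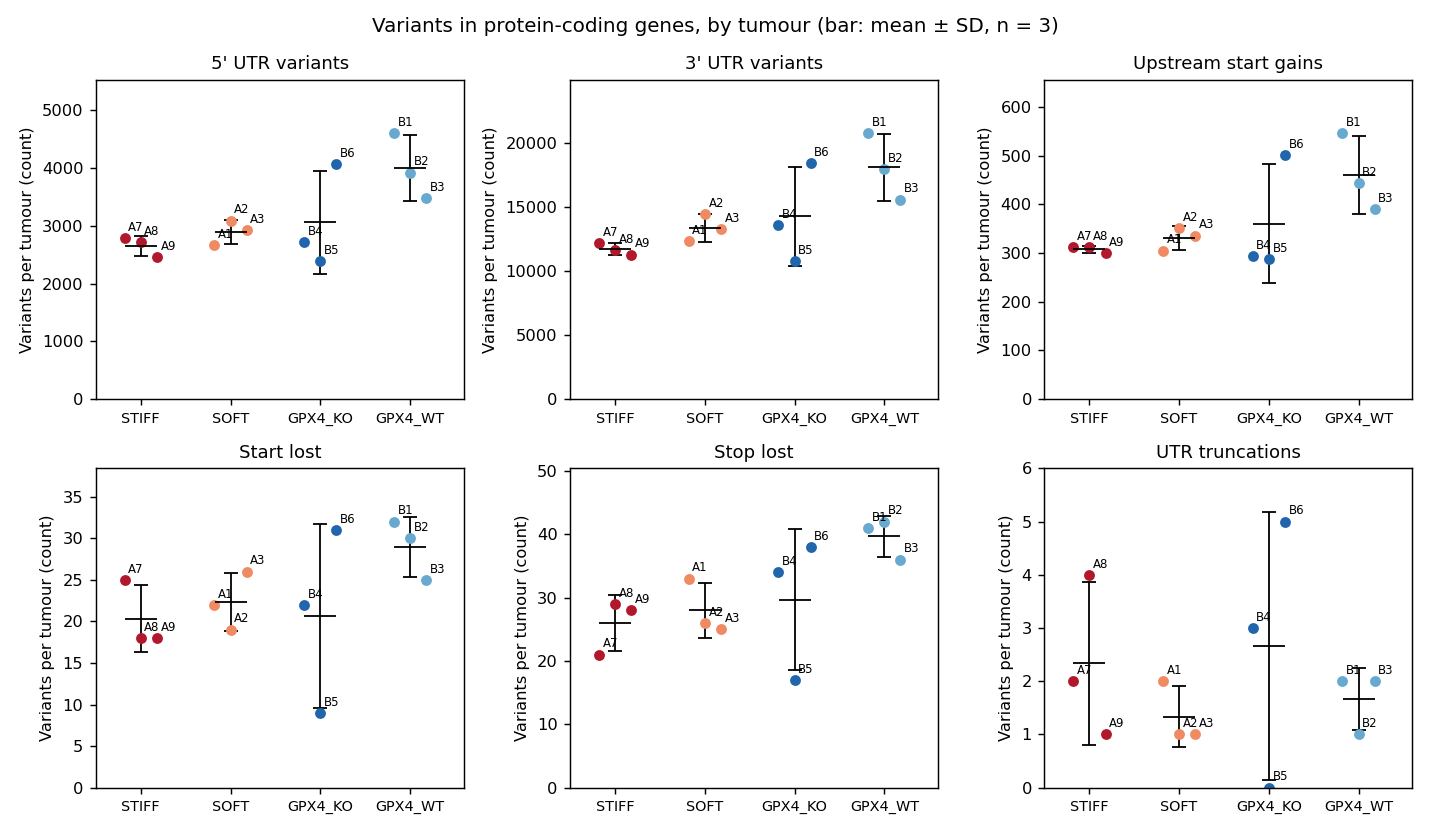
Variants of each class summed over protein-coding genes (count, y axes from 0), by group on the x axis; points are tumours with their names, and bars are the mean ± SD of 3 tumours. The 3 STIFF tumours lie below the 3 SOFT tumours for 3' UTR variants, and the GPX4_KO tumours range from 10783 (B5) to 18435 (B6).

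3' UTR variants averaged 11686 ± 463.6 in STIFF tumours and 13338 ± 1070 in SOFT tumours (SD, n = 3 each), a difference of -1652 or -12.4% (exact permutation test, two-sided, p = 0.1, adjusted p = 0.413 over 33 burdens and ratios). With 3 tumours against 3, an exact p of 0.1 is the smallest that 20 assignments can give. 5' UTR variants averaged 2653 ± 174.5 in STIFF tumours and 2892 ± 213.7 in SOFT tumours (SD, n = 3 each), a difference of -239.0 (exact p = 0.3). The GPX4_KO tumours averaged 14261 ± 3873 3' UTR variants and the GPX4_WT tumours 18084 ± 2609 (SD, n = 3 each), a difference of -3824 (exact p = 0.3). For 5' UTR variants the averages were 3060 ± 892.2 in GPX4_KO tumours and 4002 ± 571.1 in GPX4_WT tumours (SD, n = 3 each), a difference of -942.0 (exact p = 0.3). Without A9, STIFF minus SOFT was -1443 for 3' UTR variants (exact p = 0.2) and -139.7 for 5' UTR variants (exact p = 0.5). Without B5, GPX4_KO minus GPX4_WT was -2085 for 3' UTR variants and -604.8 for 5' UTR variants (exact p = 0.5 for both). Without B6 they were -5911 and -1448. None of these differences passed the test, which at this size could not reach 0.05.

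Upstream start gains moved with the 5' UTR variants among which they are counted. They numbered 312, 312 and 300 in STIFF tumours, against 305, 352 and 336 in SOFT tumours. They numbered 293, 287 and 501 in GPX4_KO tumours, against 547, 444 and 390 in GPX4_WT tumours. As a share, they made up 11.2, 11.5 and 12.2 of every 100 5' UTR variants in A7, A8 and A9, against 11.5, 11.4 and 11.5 in A1, A2 and A3. The same share was 10.8, 12.03 and 12.3 in B4, B5 and B6, against 11.9, 11.3 and 11.2 in B1, B2 and B3. The share differed by 0.19 between STIFF and SOFT means and by 0.23 between GPX4_KO and GPX4_WT means (exact p = 0.8 for both, n = 3 each).

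Start and stop codon changes were rare. Start losses numbered 25, 18 and 18 in STIFF tumours, against 22, 19 and 26 in SOFT tumours. They numbered 22, 9 and 31 in GPX4_KO tumours, against 32, 30 and 25 in GPX4_WT tumours. B5 held the fewest of any tumour, and also the fewest stop losses. Stop losses numbered 21, 29 and 28 in STIFF tumours, against 33, 26 and 25 in SOFT tumours. They numbered 34, 17 and 38 in GPX4_KO tumours, against 41, 42 and 36 in GPX4_WT tumours. GPX4_KO minus GPX4_WT was -10.0 for stop losses (exact p = 0.2) and -8.33 for start losses (exact p = 0.3, n = 3 each). Without B5 these were -3.67 (exact p = 0.3) and -2.5 (exact p = 0.6). STIFF minus SOFT was -2.0 for both classes, and without A9 it was -3.0 for stop losses (exact p = 0.6) and -0.833 for start losses (exact p = 0.8). UTR truncations numbered 2, 4 and 1 in STIFF tumours, against 2, 1 and 1 in SOFT tumours, and 3, 0 and 5 in GPX4_KO tumours, against 2, 1 and 2 in GPX4_WT tumours.

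Burdens averaged lower in gel than in host tumours, without passing the adjusted test. The experiments differed in host and in gel, and these cannot be told apart from any handling that differed between them. 3' UTR variants had a lowest, median and highest value of 11267, 12246 and 14444 in the 6 gel tumours, against 10783, 16744 and 20765 in the 6 host tumours. The mean difference was -3660 or -22.6% (exact permutation test, two-sided, p = 0.0476, adjusted p = 0.413). 5' UTR variants had a lowest, median and highest value of 2454, 2752 and 3088 in gel tumours, against 2386, 3699 and 4609 in host tumours, with a mean difference of -759.2 (exact p = 0.0693, adjusted p = 0.413). The groups overlapped for both classes, since B4 lay inside the gel range and B5 below it. Leaving out any 1 of A1, A3, A7, A8, A9, B6, B1, B2 or B3 put the 3' UTR exact p above 0.05 (0.0628 to 0.0844). Without A9 and B5 the differences were -4489 for 3' UTR variants (exact p = 0.0159) and -924.6 for 5' UTR variants (exact p = 0.0397), both unadjusted.

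Set against the other changes of each tumour, several of these differences had the opposite sign, while GPX4_KO minus GPX4_WT stayed negative for 5' UTR variants (-0.00479 per 100 MODIFIER variants, exact p = 1.0, n = 3 each). The MODIFIER variants of each tumour, which hold the UTR variants together with intronic and flanking ones, averaged 357446 ± 21945 in STIFF tumours and 414938 ± 35834 in SOFT tumours (SD, n = 3 each). Per 100 of them there were 0.733, 0.762 and 0.731 5' UTR variants in A7, A8 and A9, against 0.698, 0.682 and 0.712 in A1, A2 and A3. All 3 STIFF tumours were thus above all 3 SOFT tumours (difference 0.0447, exact p = 0.1, adjusted p = 0.413). Per 100 MODIFIER variants there were on average 3.24 ± 0.0589 3' UTR variants in gel tumours and 3.06 ± 0.116 in host tumours (SD, n = 6 each; exact p = 0.00649, adjusted p = 0.179). The 5' UTR averages were 0.720 ± 0.0285 in gel tumours and 0.666 ± 0.0276 in host tumours (SD, n = 6 each; exact p = 0.0108, adjusted p = 0.179). No burden or ratio passed 0.05 after adjustment. Across both experiments, the 3' UTR difference of STIFF from SOFT plus that of GPX4_KO from GPX4_WT came to -5476 (exact permutation within experiments, p = 0.075, adjusted p = 0.48 over 12 tests). The difference between those 2 differences was 2172 (exact p = 0.53). Leaving out 1 tumour at a time, the 3' UTR sum ran from -7563 (without B6, exact p = 0.015, unadjusted) to -3737. Over the 12 tests, 4 of 144 such leave-outs had an unadjusted exact p under 0.05.

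**Figure D2:**
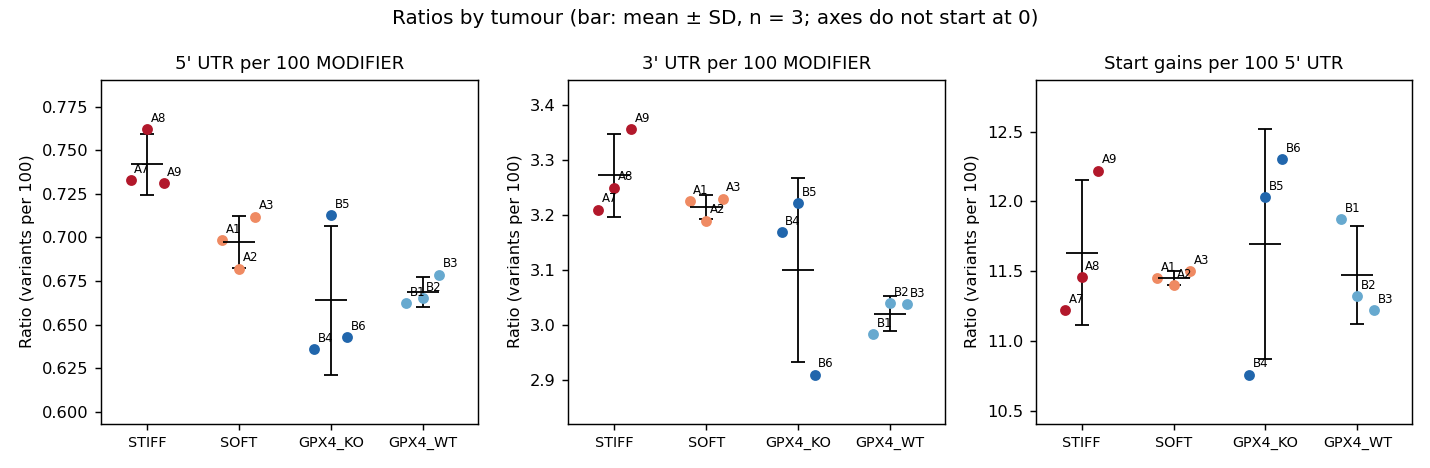
Ratios (variants per 100, y axes not starting at 0) by group on the x axis: 5' UTR and 3' UTR variants per 100 MODIFIER variants, and upstream start gains per 100 5' UTR variants; points are tumours, and bars are the mean ± SD of 3 tumours. The STIFF tumours lie above the SOFT tumours in the first ratio, and A9 has the highest value of the second, 3.36.

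Of the 5862 genes with a 5' UTR variant, 501 (8.55%) had one in all 12 tumours and 2682 (45.8%) in 1 tumour alone. Of the 11013 genes with a 3' UTR variant, 1246 (11.3%) had one in all 12 and 3551 (32.2%) in 1 alone. Upstream start gains were seen in all 12 tumours in 96 genes (6.70%) and in 1 alone in 807 (56.3%). In 193 of the 501 genes, and in 71 of the 96, the count was the same in every tumour. Without A9 and B5, genes in every tumour numbered 541 for 5' UTR variants, 1350 for 3' UTR variants and 107 for upstream start gains. Genes seen in 1 tumour alone were most numerous in B1 (343) for 5' UTR variants and in B1 (422) and A9 (406) for 3' UTR variants.

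**Figure D3:**
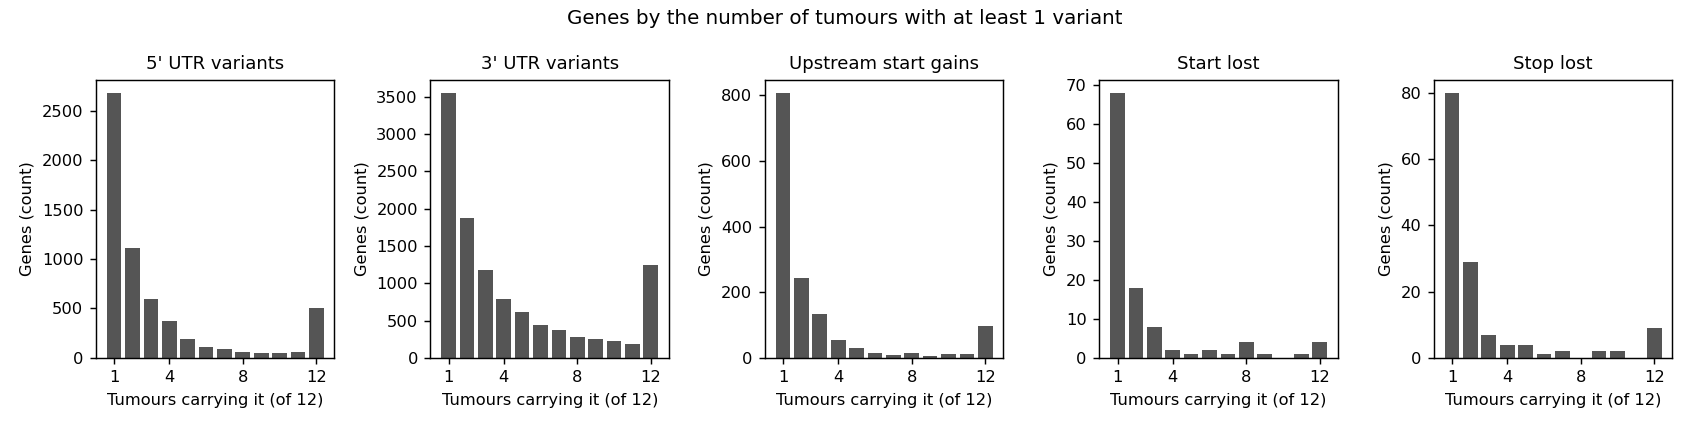
Number of genes (y axis, count) by the number of tumours that carry at least 1 variant of the class (x axis, 1 to 12 of 12), 1 panel for each of 5 classes. Each panel is highest at 1 tumour and rises again at 12 tumours. At 12 tumours there were 501 genes for 5' UTR variants, 1246 for 3' UTR variants and 96 for upstream start gains. Start lost had 4 genes there and stop lost 9.

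The genes with the most 3' UTR variants carried them in every tumour. Pfdn2, a subunit of the prefoldin chaperone, had 144, 129 and 109 in STIFF tumours, 149, 155 and 105 in SOFT tumours, 136, 113 and 159 in GPX4_KO tumours, and 132, 172 and 149 in GPX4_WT tumours. Nectin4, a cell adhesion molecule of epithelia, had between 72 (A8) and 131 (B6). Pcdhb14, a clustered protocadherin, ranged from 61 to 82, and Ermap, a membrane protein of red cells and their precursors, from 43 to 59. Olfr639, an olfactory receptor gene, ranged from 41 to 95. The counts of Pfdn2, Ermap and Olfr639 overlapped between the groups of each pair. Those of Nectin4 did not overlap between STIFF (73, 72 and 77) and SOFT tumours (80, 106 and 80). Those of Pcdhb14 did not overlap between GPX4_KO (73, 61 and 70) and GPX4_WT tumours (80, 79 and 75). Each of these genes overlapped in the other pair. With 3 tumours against 3, full separation has a chance of 0.1 over the 20 assignments. It can thus arise by chance when several genes are looked at in both pairs. The share of all genes that separate in this way is not given, so no group difference is drawn from these counts.

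Plekhf1, which encodes an endosomal protein with PH and FYVE domains, was the exception. It had 109, 129 and 11 3' UTR variants in A7, A8 and A9, against 98, 86 and 125 in A1, A2 and A3. It had 97, 12 and 101 in B4, B5 and B6, against 95, 90 and 80 in B1, B2 and B3. A9 and B5 thus held 11 and 12 where every other tumour held 80 or more. The Plekhf1 stop codon was also counted as lost in the other 10 tumours and in neither A9 nor B5. Ccne1, which encodes cyclin E1 and lies 2 genes from Plekhf1 in the GRCm38.p6 gene order, was likewise without UTR variants in A9 and B5. Its 3' UTR count was 11, 15 and 0 in STIFF tumours, 14, 6 and 14 in SOFT tumours, 15, 0 and 15 in GPX4_KO tumours, and 13, 8 and 6 in GPX4_WT tumours. The gene between them, 1600014C10Rik, had 5 3' UTR variants in each of the other 10 tumours and 0 in A9 and B5. Of the 222 genes with a 3' UTR variant in exactly 10 tumours, 32 lacked it in exactly A9 and B5, and the same held for 12 of 46 genes for 5' UTR variants.

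In the 5' UTR, Nit1, an amidase that repairs deaminated glutathione, led the list. It had 26, 36 and 35 5' UTR variants in STIFF tumours, against 14, 15 and 23 in SOFT tumours. It had 12, 19 and 29 in GPX4_KO tumours, against 27, 35 and 30 in GPX4_WT tumours. In edgeR's quasi-likelihood test the STIFF to SOFT difference was 0.89 on the log2 scale (approximate SE 0.25), with an unadjusted p of 0.0182 and an adjusted p of 1 over 1399 genes. Nit1 lies next to Pfdn2 in the gene order, and Klhdc9 and Nectin4 follow. Klhdc9 ranged from 35 to 55 3' UTR variants, so 3 genes in a row were among the 7 highest. Whether 1 variant was counted in more than 1 of these neighbours cannot be seen in the tables.

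The other genes with many 5' UTR variants were Olfr107, an olfactory receptor gene (20 to 25), Vstm2b, a membrane protein of the immunoglobulin superfamily (11 to 22), Sdhaf1, an assembly factor of succinate dehydrogenase (12 to 24), Lilra6, a leukocyte immunoglobulin-like receptor (5 to 20), and AC149090.1 (9 to 22). Vstm2b took 2 levels: 11 or 12 in A9, B4, B5 and B3, and 20 to 22 in the other 8 tumours. Its upstream start gains took the same split, with 2 in those 4 tumours and 4 in the other 8. Lilra6 was lowest in A9 (5) and B5 (6).

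**Figure D4:**
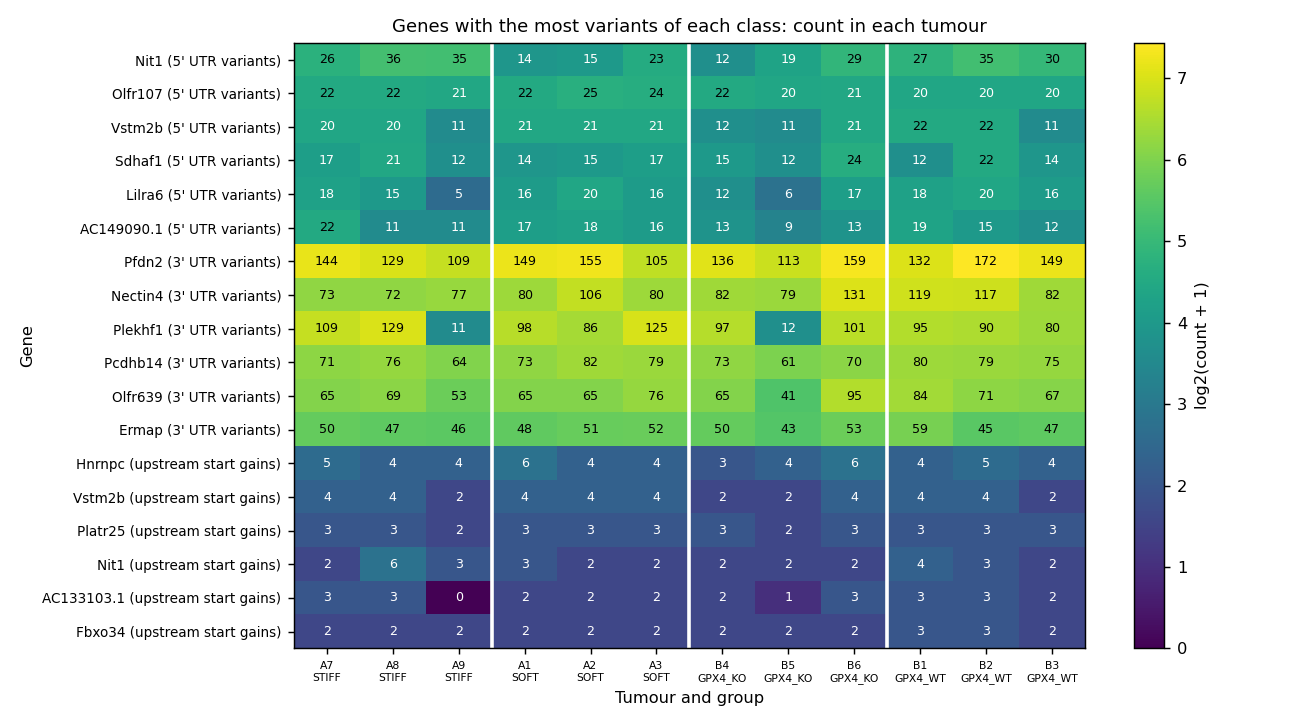
Counts per tumour (numbers in the cells, colour is log2(count + 1)) of the 6 genes with the highest mean of 5' UTR variants, 3' UTR variants and upstream start gains; columns are tumours in the order STIFF, SOFT, GPX4_KO, GPX4_WT. Plekhf1 drops to 11 in A9 and 12 in B5, and Vstm2b takes 2 levels.

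Upstream start gains were few per gene. Hnrnpc, an RNA-binding protein of nuclear pre-mRNA, had the most, with 5, 4 and 4 in STIFF tumours, 6, 4 and 4 in SOFT tumours, 3, 4 and 6 in GPX4_KO tumours, and 4, 5 and 4 in GPX4_WT tumours. Fbxo34, an F-box protein, had 2 in 10 tumours and 3 in B1 and B2. Nit1 had 2 to 6. Platr25 had 2 or 3, and AC133103.1 had 0 in A9, 1 in B5 and 2 or 3 elsewhere. These genes did not separate the groups.

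Of the 110 genes with a start lost, 68 had it in 1 tumour alone, and 4 had it in all 12. These were Nit1, Dusp12 (a dual-specificity phosphatase), Rusc2 (a RUN and SH3 domain protein) and the olfactory receptor gene Olfr1508. For none of the 4 was the start lost in every protein-coding transcript listed, so another listed transcript kept its start in every tumour. Dusp12 and Nit1 lie 21 genes apart on the same chromosome. Bicdl2 lost a start in all tumours but A9. Arpc1a, a subunit of the Arp2/3 actin-nucleating complex, Brd8dc and Ugt1a10 each lost it in 8 tumours, in all listed transcripts, and Ntf5 did so in 6 tumours. These 4 genes were picked after their values were seen. In 107 of the 260 pairs of a gene and a tumour with a start lost (41.2%), every listed transcript was affected.

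Stop losses were carried by 9 genes in all 12 tumours. They were Asf1b (a histone chaperone), Tsc2 (tuberin, an inhibitor of mTORC1), Plekhm2 (a lysosome adaptor for kinesin-1), Fbxw19, Krtcap3, Vwde, H2-Q7 and the olfactory receptor genes Olfr313 and Olfr420. For Asf1b, Plekhm2, Fbxw19, Krtcap3, Olfr313 and Olfr420 every listed transcript was affected, and for Tsc2, Vwde and H2-Q7 it was not. Slc39a2, a zinc transporter, shared the pattern of Plekhf1, with a stop lost in all tumours except A9 and B5. In 192 of the 361 pairs of a gene and a tumour with a stop lost (53.2%), every listed transcript was affected. In the median tumour 78.0% of genes with a stop lost also had a 3' UTR variant (63.6% to 96.0%), against 17.0% (14.1% to 23.3%) of all protein-coding genes listed. For start losses, 62.7% (52.2% to 82.4%) also had a 5' UTR variant, against 6.60% (5.89% to 9.90%) of all genes. The excess was not limited to the adjoining UTR. In the median tumour 67.6% of genes with a stop lost also had a missense variant and 58.6% a synonymous one, against 15.0% and 13.1% of all genes. Of genes with a start lost, 61.6% also had a missense variant and 47.2% a synonymous one.

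UTR truncations touched 7 genes. Vrk3, a kinase-like protein, had a truncation and a stop lost in the same 9 tumours, with neither in A9, B5 and B1. Cpt1a, which admits long-chain fatty acids to mitochondria, had one in B6 and B3, Tmprss6 in A9 and B6, and Kcnn1 in A8, B4, B6 and B1. Siglece had 1 in A7, 2 in A8 and 1 in B1, and Prodh2 had 1 in A1.

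Genes were then tested one by one. In edgeR's quasi-likelihood test with Benjamini-Hochberg adjustment, no gene passed an adjusted p of 0.05 for 5' UTR variants, 3' UTR variants or upstream start gains in any of the 3 comparisons (0.0% called). The rarer classes were not fitted. For 3' UTR variants, 138 of 4225 genes (3.27%) had an unadjusted p under 0.05 between STIFF and SOFT tumours, 189 of 5027 (3.76%) between GPX4_KO and GPX4_WT tumours, and 750 of 6553 (11.4%) between gel and host tumours. Of the 750, 111 were higher and 639 lower in gel tumours. For 5' UTR variants the numbers were 24 of 1399 (1.72%), 64 of 2034 (3.15%) and 260 of 2683 (9.69%). For upstream start gains they were 1 of 188, 14 of 286 and 14 of 409. DESeq2 called no gene in the STIFF to SOFT or GPX4_KO to GPX4_WT comparisons either. On counts simulated at the sizes of the GPX4_KO to GPX4_WT comparison, edgeR recovered 0% of 16-fold changes in 5' UTR or 3' UTR variants, so a count of 0 there carries little. For STIFF against SOFT it recovered 23% of 16-fold changes in 3' UTR variants and 64% in 5' UTR variants, and for gel against host 89% and 85%. The changed genes were drawn only from those at or above the median mean count, and every gene was given the same dispersion. These shares therefore do not cover genes with lower counts or a wider spread.

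The smallest p-values lay between gel and host tumours. Atp2c1, the calcium and manganese pump of the Golgi, had 2 3' UTR variants in each of the 6 gel tumours, against 16, 6 and 6 in B4, B5 and B6 and 8, 5 and 8 in B1, B2 and B3. The 2 sets did not overlap, in a gene picked by its small p-value (log2 -1.96, approximate SE 0.29, edgeR adjusted p = 0.172). Ksr2, a scaffold of the RAF and MEK kinases, had 0, 1 and 0 in STIFF and 4, 4 and 0 in SOFT tumours, against 13, 20 and 15 in GPX4_KO and 24, 15 and 7 in GPX4_WT tumours (log2 -3.28, approximate SE 0.61, edgeR adjusted p = 0.337). DESeq2 called Ksr2 (adjusted p = 0.00242), Fgf10 (0.000304), Cbfa2t3 (0.00718), Slc25a34 (0.0226) and Ctag2l2 (0.0226), all lower in gel tumours, with all size factors set to 1. With its own size factors it called Ksr2, Fgf10 and Cbfa2t3. Chpf and Des, described below, were the genes with the smallest p among those higher in gel tumours (edgeR adjusted p = 0.172 and 0.239).

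Within the experiments, too, no gene passed. Ift22, a part of the ciliary transport machinery, had 1, 1 and 3 3' UTR variants in STIFF tumours, against 11, 12 and 10 in SOFT tumours (log2 -2.63, approximate SE 0.35, edgeR adjusted p = 0.792). Med10, a subunit of Mediator, had 0 in each STIFF tumour, against 3 in each SOFT tumour, and Glyctk, glycerate kinase, had 0 in each, against 4, 5 and 5 (edgeR adjusted p = 0.792 for both). Ctu1, an enzyme of tRNA wobble thiolation, had 2, 3 and 3 in GPX4_KO tumours, against 10, 11 and 7 in GPX4_WT tumours (log2 -1.76, approximate SE 0.27, edgeR adjusted p = 0.99). In the 5' UTR, Nudt3 had 1, 0 and 1 in GPX4_KO tumours, against 10, 8 and 8 in GPX4_WT tumours (log2 -3.47, approximate SE 0.50, edgeR adjusted p = 0.799). Plxna4, a semaphorin co-receptor, had 1, 0 and 0 in STIFF tumours, against 5, 10 and 8 in SOFT tumours (log2 -4.09, approximate SE 0.77, edgeR adjusted p = 1). These genes were picked by their small p-values, which favours groups that do not overlap, and none passed the threshold.

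Some genes carried a class in all 3 tumours of one group and in none of the other. For 3' UTR variants, 27 genes did so in STIFF against SOFT tumours (0.325% of 8310) and 65 in SOFT against STIFF tumours (0.782%), 1.11% in either direction. Wbp11, a splicing factor, had 7, 8 and 7 in STIFF tumours, against 0 in each SOFT tumour. Cdh7, a cadherin, had 6, 7 and 4 in STIFF tumours and Map3k21, a MAP kinase kinase kinase, had 4, 5 and 3, both against 0 in each SOFT tumour. Dr1, a repressor of TATA-binding protein, and Micos10, a part of the mitochondrial cristae junction complex, also appeared on this side. In SOFT tumours Akap7, a protein kinase A anchor, had 11, 6 and 2, Treml4 had 1, 9 and 9, Mak16 3, 12 and 3, Cop1, a ubiquitin ligase, 3, 6 and 6, and Slc35d1, a nucleotide-sugar transporter, 4, 3 and 8, against 0 in each STIFF tumour. Most of these genes had variants in some host tumours too: Wbp11 had 22 in B6, 20 in B1, 10 in B2 and 6 in B3.

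For 5' UTR variants, 10 genes were in all STIFF and no SOFT tumours (0.264% of 3787) and 12 in all SOFT and no STIFF tumours (0.317%), 0.581% in either direction. Islr2, Neurl1a, Aadacl2fm1 and Clpsl2 were among the 10, each with 1 or 2 in every STIFF tumour. Disc1 had 2 in each SOFT tumour and Alox12b, an epidermal lipoxygenase, had 3, 3 and 2, and both had 0 in the other 9 tumours. Luzp1, Nedd4l, a ubiquitin ligase, and Stk38l also had 0 in STIFF tumours and 1 to 3 in SOFT tumours, but were seen in host tumours as well. A single gene, Mast4, had an upstream start gain in all STIFF tumours and no SOFT tumour (0.118% of 848).

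Between GPX4_KO and GPX4_WT, most genes of this kind were on the GPX4_WT side. For 3' UTR variants, 27 genes were in all GPX4_KO and no GPX4_WT tumours (0.306% of 8814) and 75 in all GPX4_WT and no GPX4_KO tumours (0.851%), 1.16% in either direction. There were 9 (0.203% of 4426) and 47 (1.06%) for 5' UTR variants, 1.27% in either direction. Upstream start gains gave 1 (0.0962% of 1040) and 13 (1.25%), 1.35% in either direction. The GPX4_WT tumours also held more variants in total, and their part in these counts was not tested. Without B5 the 3' UTR counts were 124 and 116 genes, with 2 GPX4_KO tumours left to fill the criterion. Dock10, an exchange factor for small GTPases, had 0 3' UTR variants in each GPX4_KO tumour, against 11, 10 and 9 in GPX4_WT tumours. Rbm7, an RNA-binding protein of the nuclear exosome, had 0 in each GPX4_KO tumour, against 12, 7 and 11 in GPX4_WT tumours. Both genes also took 2 levels in the gel tumours: Dock10 had 11, 11 and 10 in STIFF and 10, 0 and 11 in SOFT tumours, and Rbm7 had 0 in all STIFF tumours and 11, 11 and 0 in SOFT tumours. Tmem100, Vps37b, a part of the ESCRT-I complex, and Gpbp1l1 showed the same difference with 1 to 15 variants in GPX4_WT tumours.

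On the GPX4_KO side, Prr14l had 4, 2 and 7 3' UTR variants, Lrrc25 had 5, 2 and 3, Pdc 1, 6 and 3, Adal 1, 3 and 5, and Supt4a, a transcription elongation factor, 4, 1 and 4, against 0 in GPX4_WT tumours. Srp14, a subunit of the signal recognition particle, had 2 5' UTR variants in each GPX4_KO tumour and 0 in the other 9, and 1 of its variants was an upstream start gain in each. Fbxo11 and Fam204a, with 2 or 3 5' UTR variants in each GPX4_KO tumour, Tab3 and Midn were the others leading in the 5' UTR. In the 5' UTR of GPX4_WT tumours Nr2c1, an orphan nuclear receptor, had 6, 6 and 4, with 2, 2 and 1 upstream start gains, against 0 of either in GPX4_KO tumours. H3c3, a histone H3 gene, had 9, 7 and 3 there, and Parp8 3, 4 and 3. Osbpl10 led the upstream start gains, with Nr2c1 second, followed by Spsb1 and Foxred1. The start of Ttc39b (1.33% of 75 genes) and the stops of Cd5l, which is secreted by macrophages, and Yif1a (1.87% of 107) were lost in all 3 GPX4_WT tumours and no GPX4_KO tumour.

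**Figure D5:**
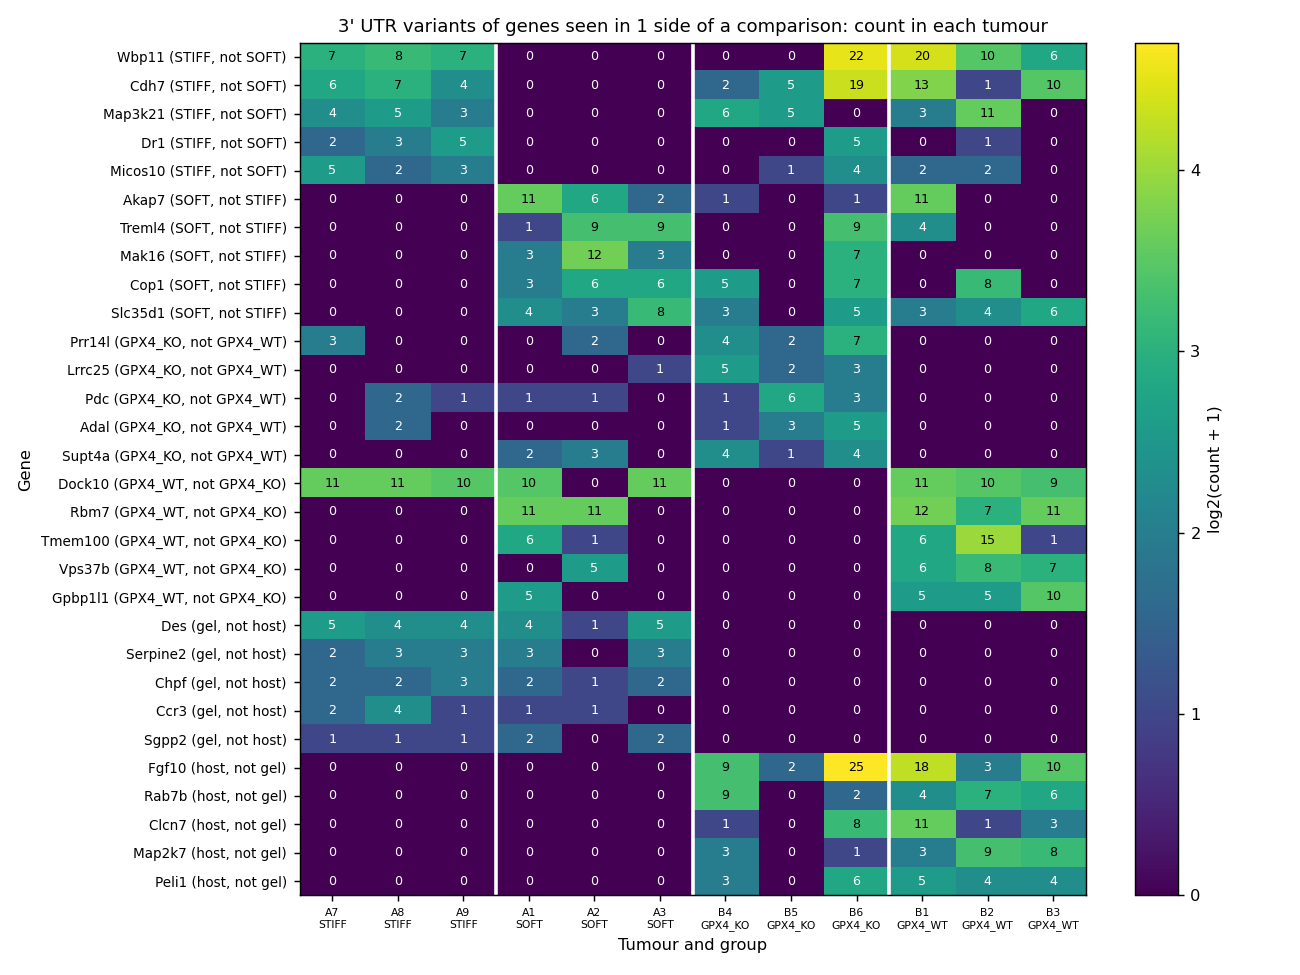
3' UTR variants (number in each cell, colour is log2(count + 1)) of the 5 genes per side with the largest difference among those seen in every tumour of one side and none of the other, or, for gel and host, in at least 5 of 6 against none; columns are tumours in the order STIFF, SOFT, GPX4_KO, GPX4_WT. Dock10 has 9 to 11 in GPX4_WT tumours and in all gel tumours but A2, and 0 in GPX4_KO tumours.

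Between gel and host tumours, 10 genes had 3' UTR variants in at least 5 of the 6 gel tumours and in no host tumour (0.0908% of 11013), and 34 the reverse (0.309%), 0.4% in either direction. Des, the muscle intermediate filament desmin, had 5, 4 and 4 in STIFF and 4, 1 and 5 in SOFT tumours, against 0 in all host tumours. Chpf, which polymerises chondroitin, had 2, 2 and 3 in STIFF and 2, 1 and 2 in SOFT tumours, Serpine2, a protease inhibitor, 2, 3 and 3 and 3, 0 and 3, and Sgpp2, a sphingosine phosphatase, 1 each and 2, 0 and 2. Ccr3, a chemokine receptor, was also on this side. Fgf10, a growth factor needed for the mammary bud, had 0 in all gel tumours, against 9, 2 and 25 in GPX4_KO and 18, 3 and 10 in GPX4_WT tumours. Rab7b, Clcn7, a lysosomal chloride transporter, Map2k7, a kinase of the JNK pathway, and Peli1, a ubiquitin ligase, also had 0 in all gel tumours, and each had 0 in B5. For 5' UTR variants there were 1 gene on the gel side (Gm11627, 0.0171% of 5862) and 8 on the host side (0.136%), 0.154% in either direction, the 8 led by Tab2, an adaptor of TAK1 signalling, with 3, 1 and 3 in GPX4_KO and 2, 2 and 6 in GPX4_WT tumours, and followed by Ablim1, Nxn, Artn and Gas7. Metap2, a methionine aminopeptidase, was the single gene with an upstream start gain in all host tumours and no gel tumour (0.0697% of 1434).

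Des, Chpf, Sgpp2, Serpine2 and Dock10 lie in 1 stretch of chromosome 1, with other genes between them. In the GRCm38.p6 gene order Dock10 is 25 genes from Des, with Chpf, Sgpp2 and Serpine2 at 4, 12 and 22. Dock10 differed from the rest in host tumours, with 11, 10 and 9 3' UTR variants in B1, B2 and B3. Des, Chpf, Sgpp2 and Serpine2 had 0 in every host tumour. A2 had 1, 1, 0, 0 and 0 3' UTR variants in Des, Chpf, Sgpp2, Serpine2 and Dock10, and each of the other 5 gel tumours had at least 1 in all 5. Other genes of the stretch went both ways. Inha had 0 in A2, 1 in each other gel tumour and, among host tumours, 1 in B5 alone. Obsl1 had 0 in A2, A9 and every host tumour, and 1 or 3 in the other gel tumours. By contrast, Utp14b had 4 in A2, 0 in A9 and 1 to 6 in every host tumour, and Kcne4 had 2 in A2. Epha4 had 0 in A2, A7 and A8, and 4, 3 and 4 in B1, B3 and B4. The stretch and these genes were picked after their values were seen. Among all genes with a highest 3' UTR count of at least 8, 729 of 1240 (58.8%) had 0 in at least 1 tumour, and 284 had 0 in 6 or more.

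Gene lists of UTR-linked biology held members with variants in every list. In the list of mRNAs regulated through upstream open reading frames, 12 of 22 genes (54.5%) had a 5' UTR variant in some tumour and 4 (18.2%) an upstream start gain, against 27.5% and 6.73% of all 21312 genes. In mRNAs with iron-responsive elements the numbers were 7 of 10 and 2 of 10. Fth1, the ferritin heavy chain, whose 5' UTR holds such an element, had 4, 2 and 0 5' UTR variants in STIFF tumours, against 0 in SOFT tumours, and 0, 0 and 4 in GPX4_KO tumours, against 4, 0 and 3 in GPX4_WT tumours. Fth1 falls outside the rule for named genes and was picked after its values were seen. In mRNAs with AU-rich 3' UTR elements 18 of 28 listed members (64.3%) had a 3' UTR variant, and in let-7 targets 17 of 22 (77.3%), against 51.7% of all genes. In the let-7 list Lin28a, which blocks let-7 maturation, had 5, 3 and 3 3' UTR variants in STIFF tumours, against 3 in each SOFT tumour, and 5, 4 and 3 in GPX4_KO tumours, against 8, 10 and 7 in GPX4_WT tumours. The list medians of summed 5' and 3' UTR variants over the 12 tumours ran from 1 (selenoproteins, translation initiation factors) to 10 (iron-responsive elements), against 1 over all genes.

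Of the selenoproteins, the family of GPX4, 3 of 24 genes (12.5%) had a 5' UTR variant and 12 (50.0%) a 3' UTR variant, against 27.5% and 51.7% of all genes. Selenow had 2, 2 and 4 3' UTR variants in STIFF tumours, 4, 0 and 1 in SOFT tumours, 3, 0 and 4 in GPX4_KO tumours, and 0, 4 and 3 in GPX4_WT tumours. Selenos had 3, 0 and 1 in GPX4_KO tumours, against 6, 3 and 3 in GPX4_WT tumours. Of the 49 translation initiation factors, 14 (28.6%) had a 5' UTR and 30 (61.2%) a 3' UTR variant, against the same shares of all genes. Eif3a, the largest subunit of eIF3, had 9 3' UTR variants in every tumour, and Eif2ak2, the kinase PKR, had 9, 10 and 11 in STIFF tumours, 6, 25 and 10 in SOFT tumours, 11, 13 and 6 in GPX4_KO tumours, and 28, 12 and 26 in GPX4_WT tumours. In 3' end processing and decay factors 40 of 56 (71.4%) had a 3' UTR variant. Cpsf6 had 1 to 17 and Cpsf3 2 to 4, and Cpsf4, a subunit of the same polyadenylation factor, had 1 in each GPX4_WT tumour and 0 in each GPX4_KO tumour. Among the AU-rich members Dusp1 had 0 to 7 3' UTR variants, and Egr1 had 2 to 9 5' UTR variants and 1 or 2 upstream start gains in every tumour. Slc11a2 and Epas1 led the iron list with 0 to 7 and 0 to 11 3' UTR variants, and Slc7a1 and Vegfa the upstream frame list with 0 to 12 and 0 to 7. Of the mammary tumour drivers, 27 of 39 (69.2%) had a 3' UTR variant. Met had 13, 13 and 10 in STIFF tumours, 18, 3 and 7 in SOFT tumours, 13, 15 and 15 in GPX4_KO tumours, and 3, 3 and 15 in GPX4_WT tumours. No list was tested, and UTR lengths, which bear on how many variants a gene can hold, are not given.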

How the data were processed

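Exome capture libraries of 12 tumours were sequenced as 150 bp paired reads, with a stated aim of 6 Gb and over 50x. The submitters' processing notes name BWA 2.2.1, SAMtools 1.19.2, GATK and the GRCm39 build. The authors deposited, per tumour, counts of variants per transcript and effect, per the file headers; no normalization is stated. The start and stop columns, named as other in the unit record, hold the same kind of deposited whole-number counts. Whether the tails served as normals is not given in the sources used here.

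Protein-coding rows were kept and rows with a blank biotype (8962 to 11049 per tumour) left out. A gene's count was the highest over its transcripts, with unlisted transcripts and absent columns as 0. The depth behind each variant is unknown, so no interval for counting error is given. Burdens and ratios were tested by exact permutation, two-sided, over 20 assignments (924 for gel and host, 400 within experiments), with Benjamini-Hochberg adjustment over 33 and 12 tests. Single genes were tested with edgeR 4.0.16 (quasi-likelihood, equal library sizes, genes summing to at least 3), with DESeq2 1.42.0 as an alternative, in R 4.3.3. The SE of a log2 fold change is approximate, its size over the root of the F statistic, and is not given where a group is at 0. The edgeR step was tested on simulated data. Tables were handled in Python 3.11.15 with pandas 2.3.3. Gene order and neighbours came from RefSeq's GRCm38.p6 gene table (20395 of 21312 symbols matched); no coordinates were taken from it.

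Named genes were, per class, the 6 with the highest mean, the 3 per direction with the smallest p, the 5 per direction carried by all of one group and none of the other, those with a start or stop lost in all 12 tumours, 2 members per gene list and any list member carried by all of one group and none of the other; gene families could be left unnamed. Some genes that this rule names are not reported here. The members and lists were chosen with earlier results of these data known. Alternatives were the collapse over transcripts, the biotypes, scaling, filters, the tool and leaving out tumours; leaving out A9 and B5 from the ratios and gene counts was added after seeing the data.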

Additional observations from a re-analysis of the deposited data

Results flagged for a closer look

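Tumours were screened in groups of 6. A tumour was singled out when its gap to the nearest other tumour, as a share of the whole range, was above Dixon's critical value. For normally distributed values, chance does this in about 1 in 20 groups. Every burden and ratio was screened in the gel and in the host tumours, and the ratios share counts with the burdens. Some of the flags below can thus arise by chance. B5 had 17 stop losses, the fewest of the host tumours. B5 also had 0.151 start losses per 100 missense variants, the lowest of the host tumours. B4 had 20.1 5' UTR variants per 100 3' UTR variants, again the lowest of the host tumours. Among gel tumours, A9 had 12.2 upstream start gains per 100 5' UTR variants and 3.36 3' UTR variants per 100 MODIFIER variants, both the highest. A8 had 4 UTR truncations, the most of the gel tumours.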

How the results depend on the processing

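No paired analysis was possible because the groups of each pair share no replicate number. Scaled per 100 MODIFIER variants, 13 of 18 burden differences changed sign, and so did 5 of the 12 results over both experiments. Only those that changed are given here. STIFF minus SOFT was then 0.0447 for 5' UTR variants, 0.0567 for 3' UTR variants, 0.00647 for upstream start gains, 0.000231 for start losses and 0.000504 for stop losses. GPX4_KO minus GPX4_WT was 0.0793 for 3' UTR variants and 0.00108 for upstream start gains. Gel minus host was 0.0535, 0.183, 0.00586, 0.0010, 0.000569 and 9.93e-05 for 5' UTR, 3' UTR, start gain, start lost, stop lost and truncation. The sums over both experiments were 0.0399, 0.136, 0.00755 and 0.000163 for 5' UTR, 3' UTR, start gain and stop lost, and the 3' UTR difference between experiments was -0.0226. This scaling divides by a total that differs between the same groups.

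With the median over transcripts, GPX4_KO minus GPX4_WT truncations were -0.167, gel minus host 5' per 100 3' UTR variants -0.0442, and gel minus host 3' UTR variants -2084 (exact p = 0.0519). Counting genes, gel minus host was -332.3 for the 5' UTR (exact p = 0.0498) and -652.5 for the 3' UTR (exact p = 0.0628). The cause was not tested.

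Without A9 and B5, STIFF minus SOFT turned to -0.109 for start gains per 100 5' UTR variants and 0.0103 for start losses per 100 missense, and GPX4_KO minus GPX4_WT to 0.00424 for the second. Gel minus host was -924.6 for 5' UTR variants and -11.4 for stop losses, and the truncation sum was 4. Genes in all of one group and none of the other numbered, for 5' UTR, 3' UTR and start gain, 61, 188 and 7 (STIFF, SOFT), 124, 240 and 32 (GPX4_KO, GPX4_WT) and 37, 115 and 5 (gel, host). Start losses gave 1 (STIFF, SOFT) and 2 (GPX4_KO, GPX4_WT), stop losses 4 (GPX4_KO, GPX4_WT), and truncations 1 in both of these pairs. Fewer tumours make this criterion easier by construction. With the minimum over transcripts, which is stricter by construction, they numbered 9, 38 and 0, then 19, 39 and 5, then 1, 23 and 0, with 0 start losses and 1 stop loss between GPX4_KO and GPX4_WT. DESeq2 called 5 and 3 genes where edgeR called 0, for 3' UTR variants between gel and host.

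Leaving out 1 tumour at a time gave these ranges. STIFF minus SOFT ran from -352.8 to -139.7 for the 5' UTR, -2167 to -1099 for the 3' UTR, -36.0 to -12.5 for start gains, -4.33 to -0.167 for start losses, -3.5 to 0.5 for stop losses (0.5 without A1 or A7), from -0.109 to 0.394 for start gains per 100 5' UTR variants and from -0.038 to 0.0207 for start losses per 100 missense. GPX4_KO minus GPX4_WT ran from -1448 to -604.8 for the 5' UTR, -5911 to -2085 for the 3' UTR, -170.3 to -56.7 for start gains, -13.5 to -2.5 for start losses, -14.2 to -3.67 for stop losses, -0.167 to 2.33 for truncations, from -0.0753 to 0.696 for start gains per 100 5' UTR variants, from -0.0293 to 0.00911 for 5' UTR per 100 MODIFIER variants and from -0.0733 to 0.00424 for start losses per 100 missense. Gel minus host ran from -988.2 to -543.6 for the 5' UTR, -4738 to -2742 for the 3' UTR, -115.5 to -63.5 for start gains, -6.67 to -2.07 for start losses, -11.2 to -6.2 for stop losses, -0.767 to 0.233 for truncations and -0.207 to 0.101 for start gains per 100 5' UTR variants. Sums over experiments ran from -1687 to -843.8 (5' UTR), -7563 to -3737 (3' UTR), -193.3 to -79.7 (start gains) and 0.833 to 3.33 (truncations). Genes in all of one group and none of the other ran, for 5' UTR, 3' UTR and start gain, from 59 to 97, 188 to 272 and 5 to 13 (STIFF, SOFT), 114 to 177, 217 to 304 and 20 to 39 (GPX4_KO, GPX4_WT), and 13 to 33, 59 to 90 and 1 to 6 (gel, host). For start losses they ran from 0 to 2, 2 to 4 and 0 to 1 in these 3 comparisons. For stop losses they ran from 0 to 1 (STIFF, SOFT) and 2 to 5 (GPX4_KO, GPX4_WT), and for truncations from 0 to 1 in both. edgeR called 0 to 1 3' UTR genes between gel and host (1 without A2).

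Within each experiment, the upstream start gain fits with a sum of at least 6 and those leaving out tumours could not be fitted. All biotypes, the other filters and TMM library sizes changed no side of a threshold. Read depth per variant is unknown.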
